A study of Mus musculus with 574 samples.

Results

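The genes described here are 7 core components of the beta-catenin pathway: Ctnnb1, Apc, Axin2, Gsk3b, Lef1, Tcf7 and Tcf7l2. They were picked by name from the pathway, with earlier results of these data known, and make up 7 of the 46078 genes in the count tables. Their rows were read in 500 of 573 mouse granulocyte/macrophage progenitors (GMPs), those in which gene reads reached 50000 and genes detected reached 1000. Irf8, a transcription factor of monocyte fate, was followed beside them, and its relation to each of the 7 across cells is described.

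Single GMPs were sorted from the bone marrow of C57Bl/6 mice aged 6 to 12 weeks. The mice had received 1 dose of 150 mg/kg 5-fluorouracil (5-FU), a drug that kills dividing cells, or PBS, and were taken on day 0, 8, 10, 12 or 14. The gate was lineage negative, c-Kit+, Sca-1-, CD34+ and FcγR+, after enrichment on c-Kit beads. Bones were crushed or flushed, and the labels do not say which set had which, how many mice gave each set, or whether the day 0 mice had been given PBS; day 0 carries the same 5-FU label as the rest. The kept cells form 6 sets, of 92 (day 0), 90 (day 8, set 1), 93 (day 8, set 2), 93 (day 10), 85 (day 12) and 47 (day 14). Only day 8 has replicate sets, so the spread behind every test is that between those sets, which may be technical. It was shared over all genes more than it was a gene's own. Cells of a set were not treated as replicates.

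Beta-catenin, the protein of Ctnnb1, joins cadherins at cell contacts and is also the effector of Wnt signalling. Without a Wnt signal, the scaffold proteins Apc and Axin hold it for phosphorylation by casein kinase and the Gsk3 kinases, and it is degraded. With a signal it accumulates, enters the nucleus and binds the TCF and LEF factors (Lef1, Tcf7, Tcf7l1 and Tcf7l2), and Axin2 is a widely used target gene that feeds back on the pathway. Control is mostly at the level of protein, which RNA counts do not measure.

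The median kept cell had between 79451 reads in genes on day 14 and 289938.5 in the first day 8 set, so the day 14 set is the shallowest and its values the least precise. It also had the fewest genes detected (median 5258, against 6739.5 to 8335.5 in the sets of days 0, 8, 10 and 12). On day 14, 49 of 96 wells did not reach the minimum, against 1 to 10 wells in each other set. A single gene, Slc34a2, took a median of 31.2% of gene reads in day 14 cells and 9.68% to 18.03% in the other sets. Kit, Cd34, Fcgr3, Fcgr2b, Mpo and Elane all had reads in every set. So did Ly6a, which encodes Sca-1, at 3.84 to 12.98 CPM, the counts per 1000000 gene reads after scaling between sets. Because the gate bars Sca-1, having reads in a summed set cannot test the gate. Levels also varied: Elane was down to 2594 and 2894 CPM in the first and second day 8 sets, from 17290 at day 0. Fcgr3 was lower there too (105.7 and 116.8, from 295.6), as was Kit (52.04 and 61.6, from 91.75). Fcgr2b and Mpo were likewise lower, whereas Cd34 was higher (583.4 and 534.5, from 353.4).

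Ctnnb1 (chromosome 9, 120929216 to 120960507, mm10) was the most abundant of the 7 per length of transcript in every set. Its level in the sum of a set's cells was 119.6 CPM (day 0), 160.1 and 147 CPM (the first and second day 8 set), 139.9 CPM (day 10), 111 CPM (day 12) and 113 CPM (day 14). Both day 8 sets lay above all others, by at most 1.5-fold. Per kilobase of exon this was 21.4 to 30.8 CPM. In these sums, fewer cells with a gene's RNA and less RNA per cell cannot be told apart. Exons of Ctnnb1 overlap 475 bases of Ulk4 on the other strand, which these libraries cannot separate. The median cell had 99.8 CPM (day 0), 151.7 and 120.9 CPM (the first and second day 8 set), 117.6 CPM (day 10), 75.1 CPM (day 12) and 51.6 CPM (day 14). These values per cell are without the scaling between sets, so they do not compare directly with the sums. The scaling factor was 0.83 for day 14 and 1.01 to 1.08 for the other sets. No cell dominated these sums outside day 14, where 1 cell held 22.7% of the Ctnnb1 reads, against 5.27% to 10.2% elsewhere.

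Gsk3b (chromosome 16, 38089001 to 38246084), the kinase that marks beta-catenin for degradation, was the steadiest member. It stood at 63.9 CPM (day 0), 64.5 and 61.5 CPM (the first and second day 8 set), 71.5 CPM (day 10), 66.5 CPM (day 12) and 57.6 CPM (day 14). Per kilobase it was next after Ctnnb1, at 5.86 to 7.27 CPM. Over the 10 pairs of days its log2 differences ran from -0.31 to 0.18, with SEs of 0.27 to 0.32.

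Apc (chromosome 18, 34220924 to 34322552), the large scaffold of the destruction complex, had 12.6 CPM (day 0), 14.0 and 14.9 CPM (the first and second day 8 set), 10.4 CPM (day 10), 22.8 CPM (day 12) and 12.98 CPM (day 14). The day 12 set was the high one. Its reads came from few cells: the 5 cells with most of them held 40.2% to 54.1% of a set's Apc reads on days 0 to 12. On day 14 they held 94.2%, and 1 cell alone 67.3%.

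Axin2 (chromosome 11, 108920349 to 108950783), the feedback scaffold, was low. It stood at 9.31 CPM (day 0), 2.93 and 6.72 CPM (the first and second day 8 set), 4.28 CPM (day 10), 6.23 CPM (day 12) and 21.5 CPM (day 14). The day 14 set was above all others, and the second day 8 set was well above the first. These values rest on 86 to 186 reads per set. No cell held more than 14.8% of them.

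Of the nuclear partners, Tcf7l2 (chromosome 19, 55741820 to 55933654) was the one read throughout. It had 16.3 CPM (day 0), 8.71 and 16.3 CPM (the first and second day 8 set), 9.75 CPM (day 10), 15.3 CPM (day 12) and 21.2 CPM (day 14). The first day 8 set and day 10 were low, and the second day 8 set matched day 0. Tcf7l2 and Axin2 changed places in the order per kilobase: Tcf7l2 (0.99 to 2.42 CPM) was the higher in 5 sets and Axin2 (0.53 to 3.90 CPM) on day 14.

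Lef1 and Tcf7 were near the limit of detection. Lef1 (chromosome 3, 131110471 to 131224356) gave 16, 14, 11, 37, 7 and 4 reads in the sets in order of day, or 0.40 to 1.33 CPM. Its exons overlap 1208 bases of the antisense gene Gm43352. Of the 37 reads on day 10, 28 came from 1 cell. Without it that set had 0.33 Lef1 reads per 1000000 gene reads. Tcf7 (chromosome 11, 52252371 to 52283014) gave 5, 57, 11, 24, 6 and 9 reads, or 0.30 to 2.25 CPM. Of the 57 in the first day 8 set, 31 came from 1 cell, and that set had 0.85 per 1000000 without it. Outside those cells the typical cell with a read had exactly 1.

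**Figure D1:**
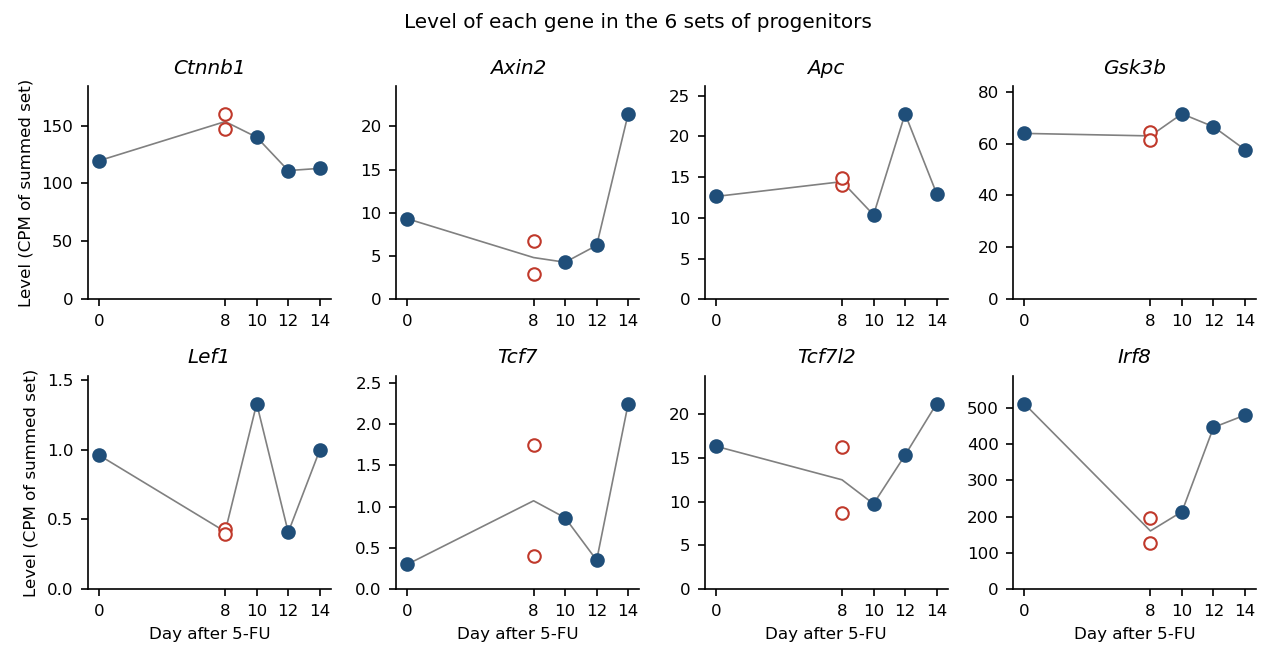
Level of each gene (vertical axis, CPM of the summed set, from 0) against day after 5-FU (horizontal axis); filled points are single sets, open points the 2 day 8 sets, and the line joins the means of the days. Ctnnb1 and Gsk3b vary by less than 1.5-fold, Axin2 is highest on day 14 (21.5 CPM) and Irf8 lowest in the day 8 sets.

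Depth differed between sets, so every cell was also thinned at random to 50000 reads before counting cells with at least 1 read. The Ctnnb1 share was then 84.8% for day 0 (exact 95% binomial interval 75.8% to 91.4%), 95.6% (89.01% to 98.8%) and 88.2% (79.8% to 93.95%) on day 8, 83.9% (day 10), 76.5% (day 12) and 68.1% (52.9% to 80.9%) on day 14. The first day 8 set and day 14 did not overlap in their intervals, which cover counting error between cells and not the spread between mice. How many of all genes had intervals apart in this way was not counted, so the gaps given here are descriptive only. The 50000 reads also include those of Slc34a2, a median of 31.2% of gene reads on day 14 and 9.68% in the first day 8 set. Gsk3b was read in 80% to 91.4% of thinned cells, with no order by day. Tcf7l2 was read in 36.7% (26.8% to 47.5%) of cells in the first day 8 set, 52.7% in the second and 70.2% (55.1% to 82.7%) on day 14. Day 0 (59.8%, 49.04% to 69.9%) lay above the first day 8 set without overlap, while the second day 8 set overlapped both.

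Axin2 was read in 32.6% of thinned cells on day 0, 20% and 30.1% on day 8, 20.4% (day 10), 28.2% (day 12) and 44.7% (30.2% to 59.9%) on day 14. Its interval on day 14 overlapped that of day 0 (23.2% to 43.2%) and lay above that of the first day 8 set (12.3% to 29.8%). The Apc share was 21.1% to 24.7% on days 0 to 12 and 6.38% (1.34% to 17.5%) on day 14. Lef1 was read in 2.13% to 6.52% and Tcf7 in 0% to 8.51% of thinned cells. In the second day 8 set 0 of 93 thinned cells had a Tcf7 read, while 9 of them had a read before thinning. No thinned cell had reads of both Lef1 and Tcf7. With all reads counted, Ctnnb1 was read in 68.1% to 96.7% of a set's cells, Tcf7l2 in 84.7% to 96.8%, Axin2 in 38.7% to 62.4% and Apc in 17.02% to 41.1%.

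**Figure D2:**
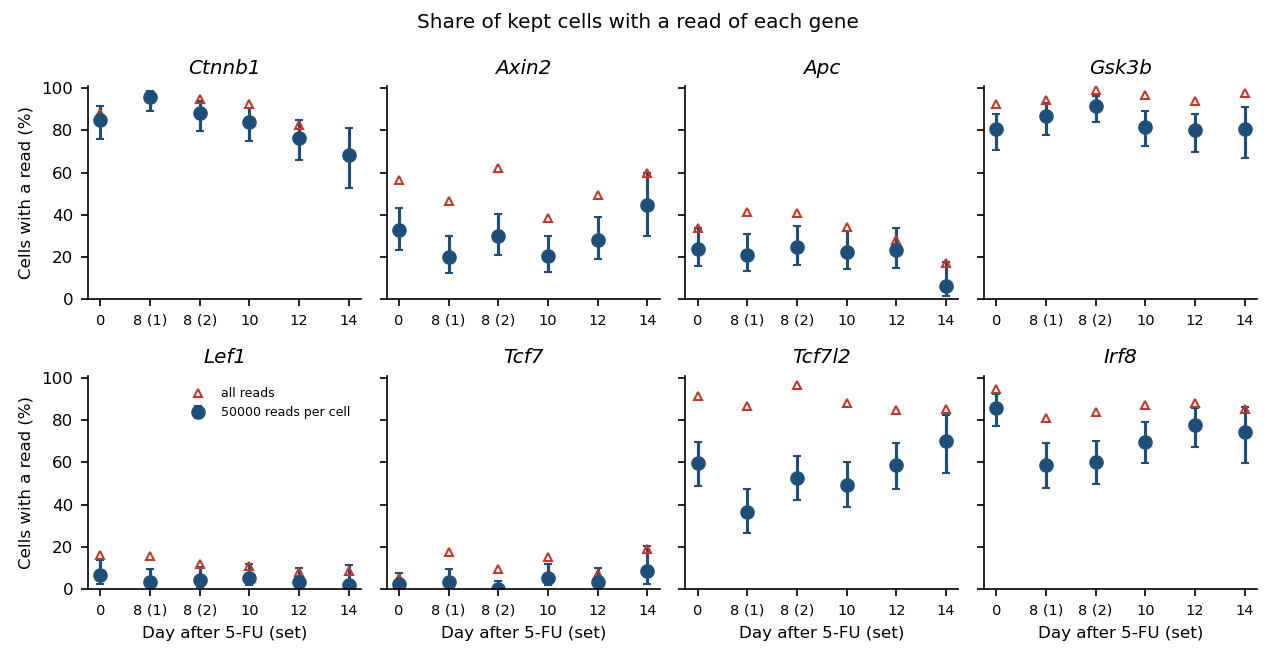
Share of kept cells with at least 1 read (vertical axis, percent) in each set (horizontal axis, day with the day 8 set in brackets). Circles are shares after thinning to 50000 reads with exact 95% binomial intervals, and triangles are shares with all reads. Ctnnb1 and Gsk3b are read in most cells, Lef1 and Tcf7 in 8.51% or fewer of thinned cells.

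To ask whether any of the 7 differed between days, counts were summed over the kept cells of each set and tested with edgeR's quasi-likelihood test over 15145 genes, with Benjamini-Hochberg adjustment and a threshold of 0.05. All 7 members passed the filter on low counts. Against day 0, none of the 7 passed on day 8 (5.63% of all genes tested did), day 10 (1.45%), day 12 (0.172%) or day 14 (1.58%). At an unadjusted p under 0.05 the counts were 0, 0, 0 and 1 of 7, the 1 being Tcf7 on day 14 (log2 2.88, SE 1.29, edgeR adjusted p = 0.300), which rests on 5 reads on day 0 and 9 on day 14. DESeq2 and limma voom also called none of them against day 0.

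Ctnnb1 on day 8 stood 0.36 above day 0 on the log2 scale (SE 0.27, edgeR adjusted p = 0.507). Axin2 stood 0.95 below day 0 on day 8 (log2 -0.95, SE 0.54, adjusted p = 0.347) and lower again on day 10 (log2 -1.12, SE 0.65, adjusted p = 0.499). Over all 10 pairs of days Ctnnb1 ran from -0.47 to 0.36 and Tcf7l2 from -0.75 to 1.12 on the log2 scale. Tcf7 and Lef1 had the widest errors, with SEs of 0.90 to 1.32 and 0.86 to 1.34. Irf8 gave a contrast in the same sums: it fell on day 8 (log2 -1.67, SE 0.27, edgeR adjusted p = 2.34e-05, 195.3 and 126 CPM against 512 CPM; 1 cell held 48.9% of the reads in the second day 8 set) and on day 10 (log2 -1.26, SE 0.33, adjusted p = 0.0292).

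Among the later days, 2 of 42 tests passed, and both were Axin2. It was higher on day 14 than on day 8 (log2 2.15, SE 0.54, edgeR adjusted p = 0.00465), a comparison in which 14.2% of all genes passed and 1 of 7 members. It was also higher on day 14 than on day 10 (log2 2.32, SE 0.67, adjusted p = 0.0265; 5.85% of all genes and 1 of 7 members). Against day 12 Axin2 stood 1.78 higher (SE 0.66, adjusted p = 0.132), and 0 of 7 members passed there against 3.24% of all genes. No member passed for day 10 against day 8 (0.792% of all genes), day 12 against day 8 (2.5%) or day 12 against day 10 (0.548%). In the order of Axin2 levels from day 10 through day 8, day 12 and day 0 to day 14, no neighbouring days thus differed beyond the spread. DESeq2 also called Axin2 for day 14 against day 8 (adjusted p = 0.0364) but not against day 10 (adjusted p = 0.104), and limma voom gave adjusted p = 0.0159 and 0.0724.

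**Figure D3:**
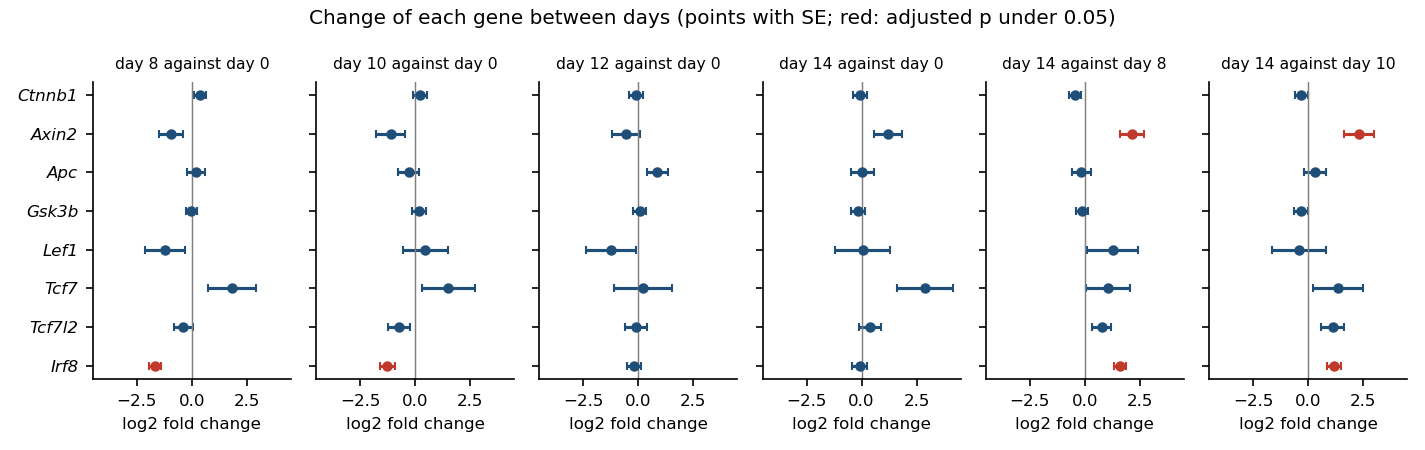
log2 fold change (horizontal axis) of each gene in 6 comparisons of days, from edgeR on the summed sets; bars are SEs and red points have an adjusted p under 0.05. Axin2 is red for day 14 against days 8 and 10 only, while Irf8 is red in 4 of the 6 panels.

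The Axin2 difference moved with the choice of cells. Keeping cells with at least 4000 genes, which left 36 of 47 on day 14 and 79 to 93 in each other set, brought it to a log2 of 1.45 against day 8 (adjusted p = 0.0847) and 1.67 against day 10 (adjusted p = 0.153). It also did not pass in cells with at least 200000 reads and 2000 genes (1.54, adjusted p = 0.195, and 1.47, adjusted p = 0.313), of which day 14 has 4. In those cells 3 tests of other members passed instead: Ctnnb1 was lower on day 14 than on day 8 (-1.06, adjusted p = 0.0168, with 18.6% of all genes called), Gsk3b lower than on day 10 (-1.21, adjusted p = 0.0441, 11.9%) and Apc lower than on day 12 (-2.41, adjusted p = 0.0468, 11.8%). Axin2 did not pass after thinning to 50000 reads (2.20, adjusted p = 0.238, and 2.25, adjusted p = 0.404), a fit that called 0 of 12197 genes. Within sets, cells with fewer genes detected at equal depth had more Axin2 reads. The Spearman correlation of Axin2 with the number of genes detected was negative in 6 of 6 sets, with a mean of -0.21 and values of -0.36 on days 12 and 14. Tcf7l2 behaved likewise (mean -0.25, negative in 6 of 6), whereas Ctnnb1 (mean 0.22) and Irf8 (mean 0.19) went the other way.

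The 49 day 14 wells that failed the minimum had a median of 1732 genes, and their values were scaled to all reads of a well, aligned to a gene or not. Ctnnb1 gave 6.42 reads per 1000000 of all reads in kept day 14 wells (exact 95% Poisson interval 5.84 to 7.04) and 0.35 (0.20 to 0.55) in those left out. Irf8 gave 27.3 and 2.37, and Apc 0.74 and 0.020. Axin2 gave 1.22 (0.975 to 1.505) in kept wells and 1.28 (0.99 to 1.64) in those left out, where 24 of 49 wells had a read. Tcf7l2 gave 1.21 (0.96 to 1.49) and 1.41 (1.09 to 1.78), with a read in 38 of 49. The median of 14678 genes was 0.166 times as high in the wells left out as in those kept, and 12.7% of genes were as high or higher there. Axin2 at 1.05 times stood above 88.2% of genes, Tcf7l2 at 1.17 times above 90.2%, Gsk3b at 0.49 times above 75.9% and Ctnnb1 at 0.054 times above 21.8%.

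Scaled in this way, kept wells gave 0.78 Axin2 reads per 1000000 (day 0), 0.46 and 0.90 (the first and second day 8 set), 0.56 (day 10), 0.57 (day 12) and 1.22 (day 14). The day 14 set was still the highest, but the difference from day 8 became 0.85 on the log2 scale (SE 0.60, edgeR adjusted p = 0.217). Against day 10 it became 1.13 (adjusted p = 0.185). On this scale the median of all genes tested had a log2 of -1.4 for day 14 against day 8 and -1.25 against day 10. Relative to that median, Axin2 stood at 2.25 and 2.38. The part of low-quality wells in the Axin2 difference was not tested beyond these values. An antisense gene, Gm11670, overlaps 105 bases of an Axin2 exon, and the libraries do not mark strand.

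**Figure D4:**
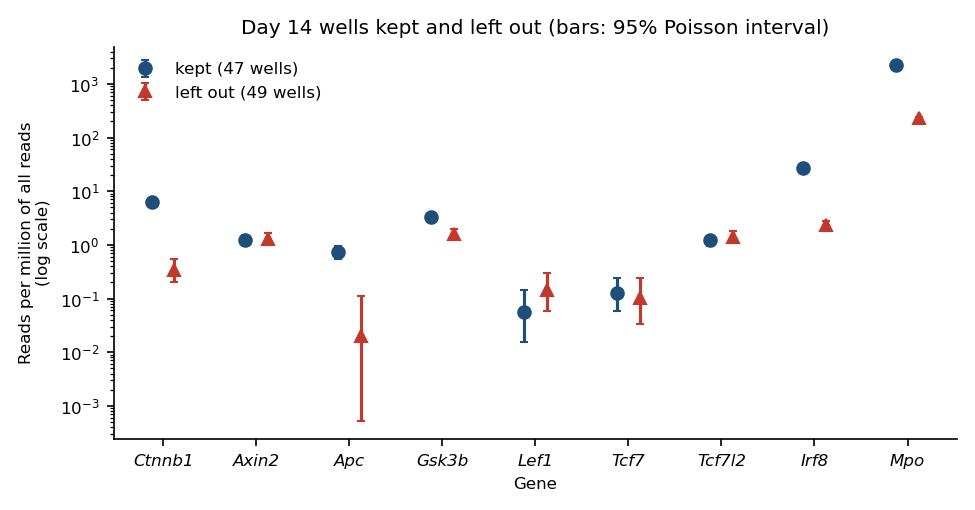
Reads per 1000000 of all reads of the well (vertical axis, log scale) for each gene on day 14, in 47 wells kept (circles) and 49 left out for low reads or genes (triangles), with exact 95% Poisson intervals for counting error. Axin2, Tcf7l2, Lef1 and Tcf7 overlap between the groups, while Ctnnb1, Apc, Gsk3b, Irf8 and the granule enzyme gene Mpo are lower in the wells left out.

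The choice of scale bears on the other members too. CPM give a share of a set's gene reads, and fewer molecules per cell of all genes leave it unchanged. The median cell's ratio of gene to spike-in counts was 40.9 (day 0), 78.9 and 71.8 (the first and second day 8 set), 59.05 (day 10), 49.9 (day 12) and 42.5 (day 14). Scaled to spike-in reads, the median of all genes tested stood 0.99 higher on day 8 than on day 0 on the log2 scale, and 43.5% of genes passed. Ctnnb1 (log2 1.35, SE 0.36, edgeR adjusted p = 0.00138), Apc (1.18, adjusted p = 0.0343), Gsk3b (0.96, adjusted p = 0.0180) and Tcf7 (2.82, adjusted p = 0.0207) passed on that scale. Relative to the median gene, Ctnnb1 stood at 0.35, Apc at 0.18, Gsk3b at -0.03 and Axin2 at -0.98. From day 8 to day 14 the median gene stood 1.49 lower per spike-in read. On that scale Ctnnb1 (log2 -1.88), Gsk3b (-1.56) and Apc (-1.59) fell with it, and Axin2 (0.74, SE 0.58, adjusted p = 0.261) did not pass. Relative to the median gene, Axin2 stood at 2.23 there. Whether all wells received the same amount of spike-in is not given in the sources used here.

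The wider pathway was described with a list of 102 other genes, of which 62 could be tested. On day 8 against day 0, where 5.63% of all genes tested passed, 1 rose and 3 fell of 62. The median log2 of the 62 was -0.06, beside 0.01 over all genes. Ccnd1, the D-type cyclin often used as a target of the pathway, was the gene that rose. It stood at 2.88 CPM (day 0), 33.9 and 27.9 CPM (the first and second day 8 set), 12.0 CPM (day 10), 3.90 CPM (day 12) and 2.25 CPM (day 14). Both day 8 sets were above every other set. Summed markers of erythroid cells and megakaryocytes, and of mast cells and basophils, were also highest there. The 7 erythroid and megakaryocyte markers summed to 160.7 and 209 CPM in the day 8 sets and to 30.9 to 61.7 CPM in the others, with Klf1 at 8.01 and 15.2 CPM against 0 on day 0. The 4 mast cell and basophil markers summed to 402 and 278 CPM against 129.3 to 215 CPM. The 7 stem and multipotent markers were also highest in the day 8 sets, at 112 and 130 CPM against 64.1 to 110.5 CPM. Summed monocyte markers were lowest in the day 8 sets (1049 and 435 CPM against 1612 to 5905 CPM). Summed granulocyte markers were lowest there too (36670 and 27990 CPM against 76710 to 81830 CPM). Single markers did not all follow the sums. Cpa3 had 144 and 61.4 CPM in the day 8 sets and 136 CPM on day 0. Itga2b had 13.9 and 33.3 CPM there and 24.3 CPM on day 12. Meis1, of the stem list, was highest on day 14 (65.6 CPM). Gfi1, of the granulocyte list, had 32.4 and 47.05 CPM in the day 8 sets and 28.5 CPM on day 0. Summed early lymphoid and B cell markers were highest on day 0 (81.2 CPM), and T and NK cell markers on day 10 (1316 CPM). The part of any of these cell types in the Ccnd1 values was not tested. The change was 3.42 on the log2 scale on day 8 (SE 0.51, edgeR adjusted p = 5.17e-06) and 2.06 on day 10 (SE 0.52, adjusted p = 0.0247), and the day 10 call did not hold with DESeq2 (adjusted p = 0.136) or limma voom (adjusted p = 0.203). Ccnd1 then fell by 2.98 from day 8 to day 12 (adjusted p = 5.11e-05) and by 3.78 from day 8 to day 14 (adjusted p = 5.2e-06). Myc, a target too and the most abundant list gene per kilobase, had 275 CPM on day 0 and 487 and 383 CPM on day 8 (log2 0.66, SE 0.28, adjusted p = 0.170).

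The genes that fell on day 8 were Fzd4 (log2 -1.16, adjusted p = 0.0236), a Frizzled receptor, Rnf43 (-3.20, adjusted p = 0.00319), a ligase that removes Frizzled receptors, and Fgf9 (-1.23, adjusted p = 0.00364), a growth factor. Rnf43 had reads in 34 of 500 cells. The Fzd4 and Fgf9 calls were lost with DESeq2 (adjusted p = 0.213 and 0.648) and on the spike-in scale (-0.20 and -0.26), and moved between -0.72 and -1.81 for Fzd4 and between -0.79 and -1.85 for Fgf9 as either day 8 set was left out. On day 10 Ccnd1 was higher and Fgf9 (-1.31, adjusted p = 0.0292) lower, a Fgf9 call lost with DESeq2 (adjusted p = 0.877) and on the spike-in scale (-0.72, adjusted p = 0.210). On day 12 0 of 62 passed, beside 0.172% of all genes. On day 14, where 1.58% of all genes passed, Fzd4 (2.30), Crebbp (1.73) and Fgf9 (1.27) were higher and Amer1 (-3.47) lower than on day 0. That Fgf9 difference passed in 2 of 12 alternatives. Amer1, which helps bind Apc at the membrane, had 4 reads in the day 14 set. On day 14 against day 8, 7 list genes rose and 2 fell of 62, a count near the 14.2% of all genes that passed there. The median log2 of the 62 was 0.12, beside -0.05 over all genes. By smallest p the list genes that passed were led by Fzd4 (log2 3.47, SE 0.33), Fgf9 (2.50, SE 0.28), the histone acetyltransferase gene Crebbp (2.28, SE 0.26), Ccnd1 (-3.78), Amer1 (-3.57) and Rnf43 (3.26). In day 14 wells left out, scaled to all reads, Fzd4 was 0.99 times, Fgf9 1.17 times and Crebbp 0.999 times as high as in kept wells, as Axin2 was, and Ccnd1 0.32 times. Amer1 was 0.36 times as high, and Rnf43, which had risen, gave 0 reads in the wells left out.

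From day 10 to day 14 Fzd4 (3.55), Fgf9 (2.59) and Crebbp (2.01) were higher and Amer1 (-3.10) and Ccnd1 (-2.42) lower. From day 12 to day 14 the same Fzd4 (3.45), Crebbp (2.40) and Fgf9 (2.12) were higher and Amer1 (-3.59) lower. No list gene passed for day 10 against day 8 or day 12 against day 10, and Ccnd1 alone for day 12 against day 8. The other abundant list genes per kilobase were the phosphatase subunits Ppp2r1a (104 to 187 CPM) and Ppp2ca (174 to 268 CPM) and the beta-catenin antagonist Cby1 (22.6 to 31.2 CPM), and none of these passed in any comparison. Of 25 ligand and ligand-export genes, 3 could be tested and none passed in any comparison with day 0 or for day 14 against day 8.

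The relation to Irf8 was taken across cells within each set, on cells thinned to 50000 reads, as a description without a test. The Spearman rho of Ctnnb1 with Irf8 was 0.07 (day 0), 0.05 and -0.23 (the first and second day 8 set), 0.12 (day 10), 0.26 (day 12) and 0.29 (day 14). It was positive in 5 of 6 sets, and the day 8 sets had opposite signs. Its mean over sets was 0.094. All 6636 genes read in at least 20% of thinned cells in every set had a median of 0.051 and a 5th to 95th percentile range of -0.084 to 0.20, so Ctnnb1 stood at percentile 69.8 of them. On days 12 and 14, where its rho was highest, the median gene also had the highest values, 0.083 and 0.20. After ranks were adjusted for the number of genes detected, the mean rho of Ctnnb1 was 0.039 and the median gene's 0.0089.

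The other members lay nearer 0 or below. The mean rho with Irf8 was -0.070 for Axin2 (percentile 6.98, negative in 5 of 6 sets), 0.015 for Gsk3b, -0.029 for Tcf7l2 and -0.040 for Apc. Adjustment for genes detected brought Axin2 to -0.0087 and turned Tcf7l2 to 0.036. The random thinning alone moved these values: with a second random draw Axin2 was -0.021, Gsk3b -0.064 and Tcf7l2 0.014. Over 8 settings Ctnnb1 ran from 0.0056 to 0.14, Axin2 from -0.082 to 0.031, Gsk3b from -0.068 to 0.027, Apc from -0.067 to 0.027 and Tcf7l2 from -0.038 to 0.086, so the sign held for Ctnnb1 and for none of the other 4. Lef1 (0.030) and Tcf7 (0.025) were too sparse for a rho of that size to be read. The share of cells with a Ctnnb1 read also differed in direction between sets. On day 12 it was read in 55 of 66 cells with an Irf8 read (83.3%, exact 95% binomial interval 72.1% to 91.4%) and 10 of 19 without (52.6%, 28.9% to 75.6%). In the second day 8 set the shares were 87.5% of 56 and 89.2% of 37 cells, and on day 0 83.5% of 79 and 92.3% of 13.

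**Figure D5:**
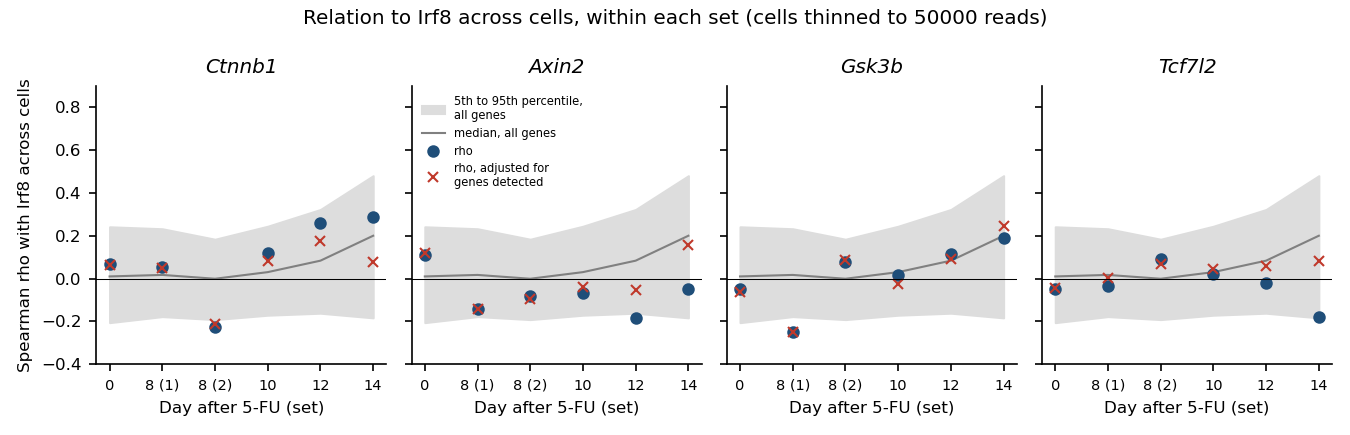
Spearman rho with Irf8 across the cells of each set (vertical axis) for the 4 members read in at least 20% of thinned cells in every set, by day and set (horizontal axis). Circles are plain values, crosses values adjusted for genes detected, and the band and line give the 5th to 95th percentile and median of 6636 genes. The values of Ctnnb1 lie inside the band except in the second day 8 set (-0.23), and the band rises on day 14.

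Members were little related to each other across cells. The highest mean within-set rho was Axin2 with Tcf7l2 (0.17, positive in 5 of 6 sets, and 0.13 after adjustment for genes detected). The lowest was Ctnnb1 with Tcf7l2 (-0.12, and -0.063 adjusted). Ctnnb1 and Gsk3b, the members read most often, had reads together in 355 thinned cells and a mean rho of -0.0095. The genes most and least like a member are the extremes of 6636 genes and were not tested. The 5th to 95th percentile of those genes was -0.079 to 0.19 for Ctnnb1, -0.17 to 0.12 for Tcf7l2, -0.15 to 0.080 for Axin2 and -0.064 to 0.083 for Gsk3b. The genes most like Ctnnb1 over the 6 sets were Slc25a3 (mean rho 0.31), a mitochondrial phosphate carrier, Gm12183 (0.30) and E2f4 (0.30), a cell cycle transcription factor. Those least like it were Gm26670 (-0.28), Gm37531 (-0.28) and Scn4b (-0.27). Tcf7l2 was most like Prdm16 (0.37) and Frmpd3 (0.36), and least like P4hb (-0.30), Lta4h (-0.29) and Tkt (-0.28), genes of protein folding, leukotriene synthesis and sugar metabolism. Axin2 was most like Ccdc105 (0.26), Yod1 (0.25) and Rab42 (0.25) and least like Hnrnpa2b1 (-0.26), the granule protease gene Prtn3 (-0.26) and Mdh2 (-0.24). Gsk3b had the weakest likenesses, led by Gskip (0.17), whose protein binds Gsk3, Mphosph9 (0.17) and Stag1 (0.17), with Manbal (-0.14) and Tbc1d15 (-0.14) at the other end. Adjusted for genes detected, the values for Ctnnb1, Tcf7l2 and Axin2 were nearer 0. Slc25a3 was then 0.23, Prdm16 0.28, P4hb -0.22, Ccdc105 0.16 and Prtn3 -0.21. Those for Gsk3b changed little (Gskip 0.16, Manbal -0.17).

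Lef1 and Tcf7 are known best from lymphocytes, so markers of those cells were counted. Of 10 early lymphoid and B cell markers 4 to 10 had reads in a set, and of 10 T and NK cell markers 4 to 8. The summed level was 52.1 to 81.2 CPM for the former, of which Cd79b made 30.8 to 68.3 CPM. In the second day 8 set Dntt added 31.3 CPM, and on day 14 Il7r, Dntt, Rag1, Rag2 and Cd79a stood at 0. Other genes of that list did not fall on day 14. Ebf1 was highest there (18.5 CPM, against 2.66 to 7.57 CPM in the other sets), as was Pax5 (0.998 CPM, against 0.31 to 0.58 CPM). The sum was 632 to 1316 CPM for the T and NK cell list, nearly all of it Nkg7, with Ncr1 at 0 in every set. Of the T cell markers, Cd3d, Cd3e and Cd247 stood at 0 to 0.25 CPM, Cd3g at 0.49 to 10.5 CPM (3.004 CPM on day 0 and 10.5 CPM on day 14), Bcl11b at 1.13 to 3.49 CPM and Lck at 0 to 5.45 CPM. Of 109 cells with a Lef1 or Tcf7 read, 82.6% had reads of at least 3 lymphoid markers, as did 78.01% of 391 cells without, and all 500 cells had reads of Mpo or Elane. The lymphoid counts took all reads, and cells with a Lef1 or Tcf7 read were deeper (median 194500 gene reads against 165800). Every cell of both groups had a read of at least 1 lymphoid marker, so these counts cannot set lymphoid cells apart.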

How the data were processed

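Single-cell libraries were made with Smart-seq2 and Nextera XT, which give no molecular identifiers and no strand, per the labels' protocols. The authors aligned reads with GSNAP to mm10 and counted them with HTSeq 0.5.3p3, per the submitters' processing notes. The deposited values are counts of reads per gene and cell, not normalized. Of 574 labelled cells, 573 were matched to a column, and 1 unnamed column was not used. In the median kept well, 90.4% of reads lay in the 5 rows naming no gene, which stayed out of library sizes, as did 92 spike-in rows. No 2 cells held identical counts.

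Cells that reached 50000 gene reads and 1000 genes were summed by set. Genes were kept by filterByExpr where 10% or more of some set's kept cells had a read, and scaled by TMM. They were tested with edgeR 4.0.16 (glmQLFit and glmQLFTest), with Benjamini-Hochberg adjustment over all genes tested. The method was tried on simulated data first. The fit had 1 residual degree of freedom and 51.5 prior ones, so a gene's error came mostly from the spread shared over genes. limma 3.58.1 and DESeq2 1.42.0 served as alternatives, in R 4.3.3. Cells were thinned to 50000 reads without replacement. Each rho was also taken with a second random draw, other depths, no thinning and Pearson's r. Intervals are exact 95% and cover counting error only. Gene models and symbols are from GENCODE on mm10. Members and lists were chosen with earlier results of these data known. Outside the members, text names the list genes that passed (the 6 of smallest p where more did), the 5 list genes highest per kilobase, and the 3 genes most and least like each member. Some genes that these rules or lists hold are not reported here.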

Additional observations from a re-analysis of the deposited data

Results flagged for a closer look

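The 49 day 14 wells that failed the minimum on reads or genes enter no comparison between days, and reads of 6 members were counted there above the limit that a count of 0 allows. Gsk3b gave 1.61 reads per 1000000 of all reads of those wells (79 reads in 39 of them), Tcf7l2 1.41 (69 reads in 38 wells), Axin2 1.28 (63 reads in 24 wells) and Ctnnb1 0.35 (17 reads in 6 wells). Lef1 gave 0.14 (7 reads) and Tcf7 0.10 (5 reads). In the 47 kept wells the values were 3.27 for Gsk3b, 1.21 for Tcf7l2, 1.22 for Axin2, 6.42 for Ctnnb1, 0.057 for Lef1 and 0.13 for Tcf7.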

How the results depend on the processing

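Against day 0, the count of members passing was 0 in every alternative run except on 2 scales for day 8. It was 1 (Tcf7) scaled to all reads, where 14.4% of all genes passed, and 4 scaled to spike-in reads, where 43.5% did. Between later days it was 2, and became 6 with no filter on cells, 3 in cells with at least 200000 reads and 2000 genes (none of them Axin2), 1 with DESeq2, 1 with limma voom, 0 with cells thinned, 0 with at least 4000 genes, 5 scaled to all reads, 8 scaled to spike-in reads and 0 without the day 14 set. On those scales 55.1% (all reads) and 61.4% (spike-in reads) of all genes passed for day 14 against day 8, and 41.1% and 43.8% for day 14 against day 10. For day 12 against day 8, 36.5% passed on the spike-in scale. With no filter on cells, 20.9% of all genes passed for day 14 against day 8, 11.4% against day 10 and 6.34% against day 12. In cells with at least 200000 reads these shares were 18.6%, 11.9% and 11.8%. For day 14 against day 8, 7.14% passed with DESeq2 and 5.78% with limma voom. Day 14 against day 8, Axin2 ran from 0.74 to 2.87 on the log2 scale over 14 alternatives and passed in 7 of the 12 that allow a test (adjusted p from 6.37e-06 to 0.261), and against day 10 it ran from 1.13 to 2.86 and passed in 5 of 12 (0.000416 to 0.404). It was 1.67 without day 8 replicate 1 and 2.87 without day 8 replicate 2, fits with no residual degrees of freedom and so no test. These signs reversed: Axin2 for day 8 against day 0 scaled to spike-in reads (0.011), Gsk3b for day 14 against day 10 with thinned cells (0.073), Tcf7l2 for day 14 against day 8 in cells with at least 200000 reads, 4 of them on day 14 (-1.23), scaled to all reads (-0.55) and to spike-in reads (-0.65), Tcf7l2 for day 14 against day 10 in those deep cells (-0.74) and scaled to all reads (-0.077), Irf8 for day 14 against day 10 scaled to all reads (-0.029) and Rnf43 for day 14 against day 8 in the deep cells (-6.88). On the scales of all reads and spike-in reads the median gene shifted too. Relative to it, Tcf7l2 stood at 0.85 and 0.84 for day 14 against day 8. On the all-reads scale Tcf7l2 stood at 1.17 and Irf8 at 1.22 for day 14 against day 10. The cause of the reversals was not tested. The fall of Irf8 on day 8 did not pass scaled to all reads (-0.85, adjusted p = 0.173), to spike-in reads (-0.68, adjusted p = 0.0993) or with thinned cells (-1.94, adjusted p = 0.476, in a fit that called 0 genes). Relative to the median gene, Irf8 on day 8 stood at -1.66 (all reads) and -1.67 (spike-in reads). Of the list genes, Fzd4 on day 8 passed in 6 of 13 alternatives, Fgf9 in 9 of 13, Rnf43 in 11 of 13 and Ccnd1 in 12 of 13, and on day 10 Fgf9 passed in 6 of 13 and Ccnd1 in 9 of 13. The filter at 4000 genes, the scalings to all reads and spike-in reads, and the fits without top cells or the day 14 set were chosen after seeing the data. No paired analysis was possible because the groups share fewer than 2 replicate numbers.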
